A study of Mus musculus with 5 samples.

Results

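Kruppel-like factors are transcription factors that bind GC-rich and CACCC sequences through C2H2 zinc fingers at their C-terminal end. The regions before the fingers differ, so some members mainly activate genes, some repress them by recruiting CtBP, and others repress them through a Sin3 corepressor. In fibroblasts, several members are induced by serum or growth factors and take part in control of cell growth. Their mRNAs were followed here in ribonucleoprotein immunoprecipitates (RNP-IPs) of AUF1 p42, a splice form of a protein that binds AU-rich elements of mRNAs. The members were Klf2, Klf3, Klf4, Klf5, Klf6, Klf7, Klf9, Klf10, Klf12 and Klf13, and all 38 probe sets that the array annotation assigned to one of these 10 symbols alone were described, of 45101 probe sets on the array. The 10 genes were among 18194 with a probe set of their own.

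The cells were NIH/3T3, an immortalised mouse fibroblast line. The cultures of the RNP-IPs carried the pBSwitch regulator and an inducible vector for myc-AUF1 p42, introduced by retrovirus. The study's methods do not state the vectors of the total RNA culture. Selection of the infected cells used blasticidin with mifepristone at 1 nM present, before the induction step. Induction used 1 nM mifepristone for 24 h, and RNA was recovered from extracts on anti-c-myc agarose beads. The 5 arrays were 2 RNP-IPs labelled induced, 2 RNP-IPs labelled uninduced and 1 total RNA, whose induction state the labels do not settle. The labels do not say whether the RNP-IPs came from separate cultures, so p-values measure only the spread between these arrays, which may be technical. A difference between RNP-IPs and a difference in the mRNA level of the cells cannot be told apart with these arrays.

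Hnrnpd, the gene of AUF1, was lower in the arrays labelled induced, with log2 signals of 6.72 and 7.39 there, 11.35 and 11.85 in the arrays labelled uninduced and 10.60 in total RNA on probe set 1425142_a_at. Probe set 1457568_at fell at least 7.90-fold to signals near background, and 1458273_at had a log2 difference of -1.97 at low signal. Whether these probe sets measure the transcript of the vector was not tested. Each direction below is that of the labels. At the 5′ end control of Gapdh, labelled induced RNP-IP 2 and labelled uninduced RNP-IP 1 had log2 signals of 4.24 and 3.65, against 6.93 to 8.18 in the others. The same arrays were lower at the middle control of Gapdh (7.21 and 5.59, against 10.36 to 10.64). They were also lower at its 3′ end (9.71 and 9.70, against 11.90 to 12.32), so the difference was not confined to the 5′ end. One array of low 5′ signal thus lay in each RNP-IP group, and its part in the results was not tested apart from the values given with those arrays left out. Of 10 fibroblast markers, 1 to 2 were under log2 5 in each array (Lum in all, Dcn in the controls), Pdgfrb was called lower (log2 -1.59, adjusted p = 0.426), and their summed log2 level was 91.7 to 93.4 in the RNP-IPs labelled induced and 94.8 to 96.0 in the controls. Of 15 markers of epithelial, blood, endothelial and neural cells, 12 to 14 were under log2 5 in each array.

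Klf10 mRNA was higher in the RNP-IPs labelled induced than in the 3 control arrays, and 1 probe set each of Klf7, Klf12 and Klf6 was lower. Klf10 rose 12.9-fold. The Klf7 probe set fell at least 5.65-fold and that of Klf12 at least 2.31-fold, both to signals near background, and that of Klf6 fell 3.05-fold. A probe set of Klf3 rose 3.14-fold from signals near background, while the brightest Klf3 probe set was 2.94-fold lower and missed the fold threshold. No probe set of Klf2, Klf4, Klf5, Klf9 or Klf13 was called in this comparison. A call needed at least a 3-fold difference with an adjusted p below 0.5, the lenient threshold that the study used. By this rule 2 of the 38 probe sets rose, beside 1.16% of all probe sets, and 3 fell, beside 1.66%. At an adjusted p under 0.05 limma called none in either direction, beside 0% of all probe sets, and 10 of 38 had an unadjusted p under 0.05, beside 10.7% of all. On the brightest probe set of each gene, 1 of the 10 members, Klf10, rose and 1, Klf12, fell, beside 1.32% and 2.36% of 18194 genes. The Klf7 and Klf6 calls are not on the brightest probe set of their gene. With counts this small, nothing particular to the family was read from them.

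**Figure D1:**
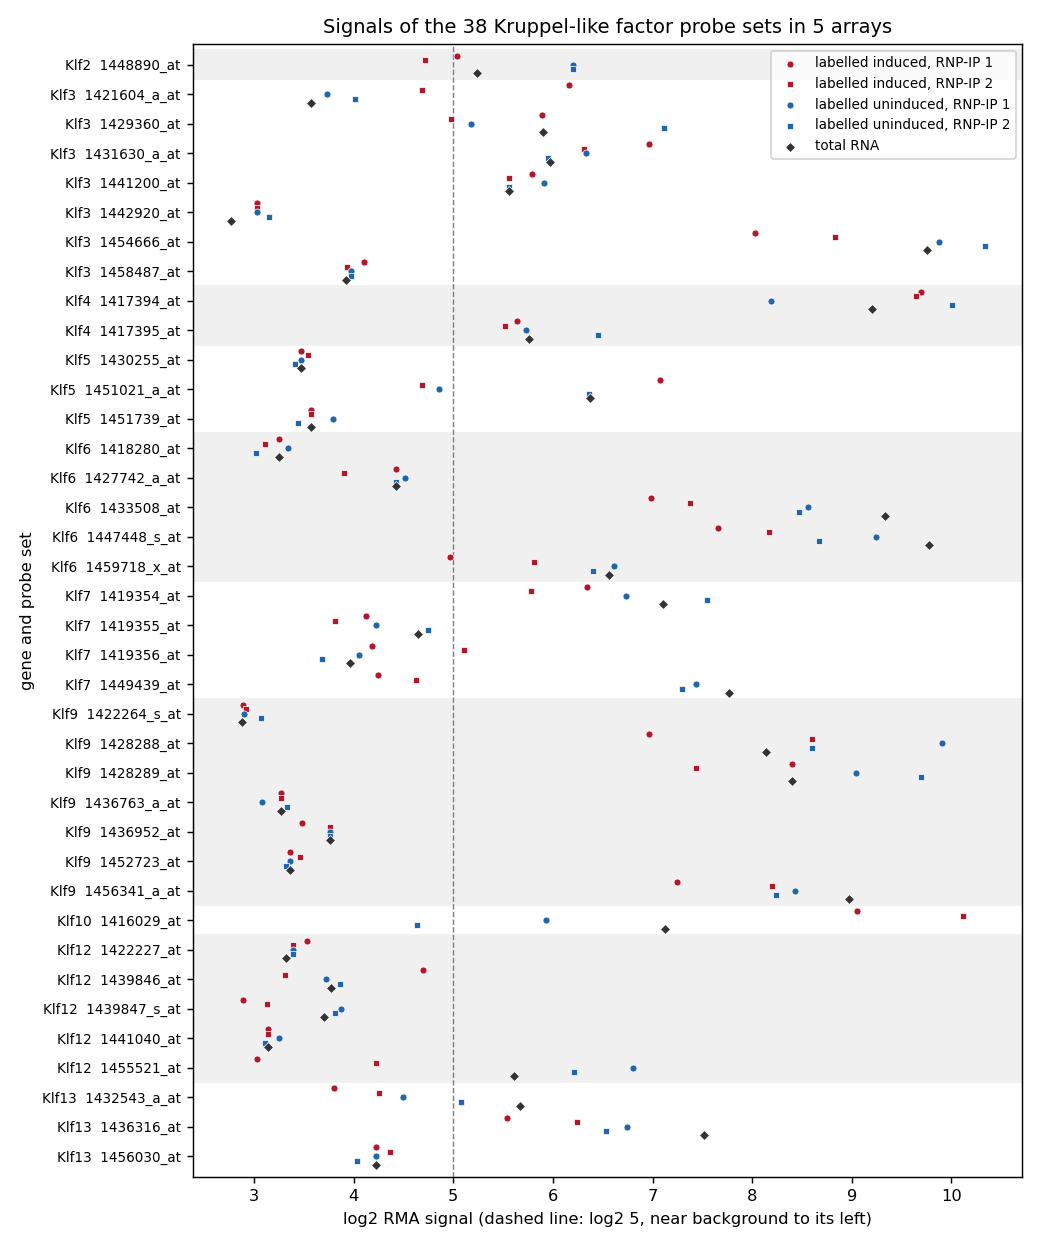
Log2 RMA signal (horizontal axis) of each of the 38 probe sets (rows, grouped by gene) in the 5 arrays, with red marks for the RNP-IPs labelled induced, blue for those labelled uninduced and a black diamond for total RNA, set apart vertically so that equal values can be seen. The dashed line is log2 5, and 16 probe sets lie to its left in every array.

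Many of the probe sets carried little signal. A log2 signal under 5 is called near background here, and 16 of 38 probe sets were under it in every array, while 19 had a mean above it. The 4 probe sets of Klf9 and the 4 of Klf12 that were under log2 5 in every array make up 8 of those 16. Of the 19 brighter probe sets, 15 had a log2 fold below 0 and 4 above 0. By the rule for calls 1 of the 19 rose, beside 3.35% of all probe sets with a mean above log2 5, and 3 fell, beside 5.18%. The median log2 fold of the 19 was -1.04, beside -0.10 over all 13565 probe sets with a mean above log2 5. Both RNP-IPs labelled induced lay below all 3 controls in 11 of the 19, beside 22.8% of all such probe sets, and above them in 1, beside 16.4%. On the brightest probe set of each gene, 7 members were below 0 and 3, Klf4, Klf5 and Klf10, were above 0, with a median of -1.05 beside -0.13 over 8275 genes of a mean signal above log2 5. The cut at a mean above log2 5 used all 5 arrays. Klf2, Klf7 1449439_at and Klf12 1455521_at averaged under log2 5 in the arrays labelled induced and passed it only through the controls. The falls of Klf7 and Klf12 are among the 3 counted. Klf3 1421604_a_at, which was called higher, was left out by its mean of 4.43. Brightest probe sets were chosen by the same mean. Nothing about the family was therefore read from these counts and medians.

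**Figure D2:**
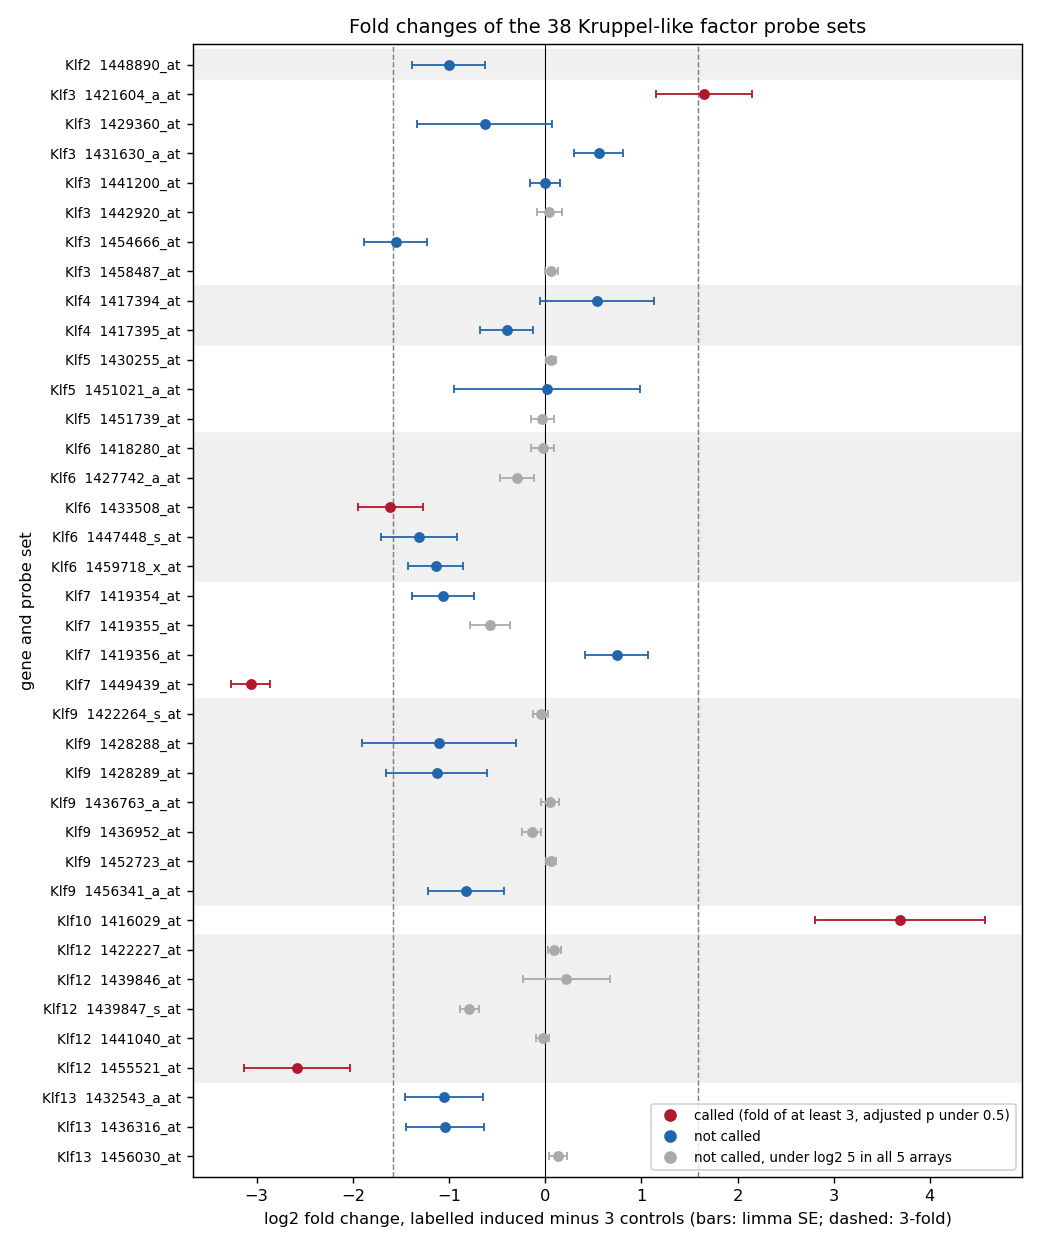
Log2 fold change of each probe set, RNP-IPs labelled induced minus the mean of the 3 controls, with the standard error from limma as bars and 3-fold as dashed lines. Red points are the 5 called probe sets, grey points are under log2 5 in all 5 arrays, and most grey points lie close to 0.

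Among the members known mainly as activators, Klf7 had the most even difference. Klf7 is expressed in many tissues and is known for its part in axon growth. Probe set 1449439_at had log2 signals of 4.25 and 4.62 in the arrays labelled induced, 7.44 and 7.30 in the arrays labelled uninduced and 7.77 in total RNA. Both RNP-IPs labelled induced were near background and the controls lay together, with no overlap. The log2 difference was -3.06 ± 0.20 (SE, n = 2 against 3, limma adjusted p = 0.0774). Since the low side was near background, the fall was at least 5.65-fold with log2 5 in its place. Of the other Klf7 probe sets, 1419354_at had 6.34 and 5.78 against 6.73, 7.55 and 7.10 in total RNA, a log2 difference of -1.07 ± 0.32 (adjusted p = 0.382), which was not called. The remaining pair differed in sign at low signal, with a log2 fold of -0.57 at 1419355_at and 0.75 at 1419356_at, neither called. The probe sets of Klf7 thus differ in size, and which transcript ends they lie on was not analysed here.

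Klf6, expressed in most tissues and known as a restraint on cell growth, was lower on each of its brighter probe sets. Probe set 1433508_at had log2 signals of 6.98 and 7.38 in the arrays labelled induced, 8.56 and 8.47 in the arrays labelled uninduced and 9.34 in total RNA, with no overlap. It fell 3.05-fold, by 1.61 ± 0.34 on the log2 scale (SE, n = 2 against 3, limma adjusted p = 0.245). Probe sets 1447448_s_at and 1459718_x_at had log2 differences of -1.31 and -1.14 (adjusted p = 0.378 and 0.294), also without overlap, and were not called, apart from 1447448_s_at without labelled uninduced RNP-IP 2 (log2 -1.59). These suffixes mark probe sets that can match other transcripts, so they are no independent measure of Klf6. The call on 1433508_at sits just past 3-fold: it was lost without labelled induced RNP-IP 1 (log2 -1.41), with cyclic loess scaling (log2 -1.52) and without both arrays of low 5′ signal (log2 -1.92, adjusted p = 0.523). Against the RNP-IPs labelled uninduced alone the difference was -1.33 on the log2 scale and not called.

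Klf2 and Klf4 share roles in endothelial cells and in growth arrest, and Klf4 is one of the factors used to reprogramme fibroblasts. Klf2 had log2 signals of 5.04 and 4.71 in the arrays labelled induced, 6.20 and 6.20 in the arrays labelled uninduced and 5.24 in total RNA, a log2 difference of -1.0 ± 0.38 (adjusted p = 0.496) that was not called. The 2 arrays labelled induced were the lowest, but close to total RNA. Klf4 had 9.69 and 9.65 against 8.19, 10.01 and 9.20 in total RNA at 1417394_at. The arrays labelled induced lay within the range of the controls, and the log2 difference was 0.54 ± 0.59 (adjusted p = 0.778). Its other probe set, 1417395_at, had a log2 fold of -0.40.

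Klf5, known to promote proliferation in epithelial and smooth muscle cells, varied more within groups than between them. Probe set 1451021_a_at had log2 signals of 7.08 and 4.68 in the arrays labelled induced, 4.85 and 6.36 in the arrays labelled uninduced and 6.37 in total RNA. The lower value of each RNP-IP group came from its array of low 5′ signal. The log2 difference was 0.02 ± 0.96, so an error of this size leaves a 3-fold difference in either direction within 2 SE. The 2 other Klf5 probe sets were under log2 5 in every array.

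Klf3 and Klf12 are the members that recruit CtBP to repress genes. Klf3 acts in fat and red blood cells, and Klf12 is known as a repressor of the AP-2 alpha gene. Klf12 was above background on 1 of its 5 probe sets, 1455521_at, with log2 signals of 3.03 and 4.23 in the arrays labelled induced, 6.80 and 6.21 in the arrays labelled uninduced and 5.61 in total RNA. Both arrays labelled induced were near background and under all controls. It fell by 2.58 ± 0.55 on the log2 scale (SE, n = 2 against 3, limma adjusted p = 0.248), or at least 2.31-fold with log2 5 in place of the low side, which is under the fold threshold. The call was lost without labelled uninduced RNP-IP 2 (log2 -2.58, adjusted p = 0.560), and the log2 difference was -1.98 without labelled induced RNP-IP 1 and -3.18 without labelled induced RNP-IP 2. The other 4 Klf12 probe sets were under log2 5 in every array, and the largest difference among them was -0.79 on the log2 scale at 1439847_s_at.

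The 7 Klf3 probe sets did not move one way. The brightest, 1454666_at, had log2 signals of 8.03 and 8.83 in the arrays labelled induced, 9.88 and 10.33 in the arrays labelled uninduced and 9.75 in total RNA, with no overlap. Its log2 difference was -1.56 ± 0.33 (SE, n = 2 against 3, limma adjusted p = 0.248), a 2.94-fold difference short of the threshold. It was called lower without labelled induced RNP-IP 2 (log2 -1.96), without labelled uninduced RNP-IP 1 (log2 -1.61) and without both arrays of low 5′ signal (log2 -2.01). Probe set 1421604_a_at went the other way, with 6.16 and 4.69 in the arrays labelled induced against 3.73, 4.01 and 3.57 in total RNA. All controls and 1 of the 2 arrays labelled induced were near background here. It rose by 1.65 ± 0.50 on the log2 scale (adjusted p = 0.379), or 1.34-fold with log2 5 in place of the controls. The latter value rests on labelled induced RNP-IP 1, since labelled induced RNP-IP 2 was itself under log2 5. That call was lost without labelled induced RNP-IP 1 (log2 0.92), without labelled uninduced RNP-IP 1 (log2 1.63, adjusted p = 0.610) and without labelled uninduced RNP-IP 2 (log2 1.77, adjusted p = 0.663), and the log2 difference was 2.39 without labelled induced RNP-IP 2. Against the RNP-IPs labelled uninduced alone it was 1.55 and not called. Among the remaining 5, 1431630_a_at had a log2 fold of 0.56 and 1429360_at of -0.63, neither called.

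Klf9, Klf10 and Klf13 carry a short domain that binds Sin3. Klf10, first described as a TGF-beta-inducible early gene, has 1 probe set, 1416029_at. Its log2 signals were 9.05 and 10.12 in the arrays labelled induced, 5.93 and 4.63 in the arrays labelled uninduced and 7.12 in total RNA. Both arrays labelled induced lay above every control, and total RNA lay between the RNP-IP groups. Klf10 rose by 3.69 ± 0.88 on the log2 scale (SE, n = 2 against 3, limma adjusted p = 0.278). Between the arrays of low 5′ signal the log2 difference, labelled induced minus labelled uninduced, was 4.19, and between the other 2 RNP-IPs it was 4.42. The call was lost without labelled uninduced RNP-IP 1 (log2 3.71, adjusted p = 0.514) and without both arrays of low 5′ signal (log2 3.17, adjusted p = 0.684), and the log2 difference was 3.06 without labelled uninduced RNP-IP 2.

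Klf9, induced by glucocorticoid and thyroid hormones, had 3 probe sets above background, and none was called. At 1428288_at the log2 signals were 6.96 and 8.60 in the arrays labelled induced, 9.90 and 8.60 in the arrays labelled uninduced and 8.14 in total RNA, with overlap of the groups. The log2 differences were -1.10 ± 0.80 at this probe set, -1.13 ± 0.52 at 1428289_at and -0.83 ± 0.40 at 1456341_a_at. Klf13, known as a regulator of Ccl5 in T cells, had 5.54 and 6.25 against 6.75, 6.53 and 7.52 in total RNA at 1436316_at. Both arrays labelled induced were the lowest, with a log2 difference of -1.04 ± 0.41 (adjusted p = 0.518) that was not called. Probe set 1432543_a_at had a measured difference of -1.05 at lower signal, under log2 5 in both arrays labelled induced and in labelled uninduced RNP-IP 1. With log2 5 in place of the arrays labelled induced, the fall was at least 1.06-fold only.

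The 3 controls were then taken apart, with a fit of 3 groups in which the single total RNA array was assumed to vary like the RNP-IPs. These comparisons share arrays with each other and with the first, so their values are not independent. Between RNP-IPs labelled induced and labelled uninduced, Klf10 rose 19.7-fold (log2 4.30 ± 0.70, adjusted p = 0.237), beside 1.23% of all probe sets called higher. Klf7 1449439_at, Klf12 1455521_at and Klf3 1454666_at fell, with measured log2 differences of -2.93, -2.88 and -1.67 (adjusted p = 0.126, 0.276 and 0.330), beside 1.91% called lower. With log2 5 in place of the signals near background, the fall was at least 5.15-fold for Klf7 and at least 2.84-fold, under the threshold, for Klf12. The Klf3 call here was lost without labelled induced RNP-IP 1 (log2 -1.27) and without labelled uninduced RNP-IP 2 (log2 -1.45). Klf9 1428289_at was called lower without labelled induced RNP-IP 1 (log2 -1.93), and Klf3 1421604_a_at higher without labelled induced RNP-IP 2 (log2 2.29).

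Between RNP-IPs labelled induced and total RNA, 2 probe sets rose, beside 1.53% of all, and 6 fell, beside 3.07%. Klf10 rose 5.51-fold (log2 2.46 ± 0.86, adjusted p = 0.410) and Klf3 1421604_a_at was called at a measured log2 difference of 1.85 (adjusted p = 0.476). For Klf3 this was 1.34-fold with log2 5 in place of total RNA, again resting on labelled induced RNP-IP 1. The probe sets that fell were Klf7 1449439_at (log2 -3.33, adjusted p = 0.103), Klf6 1433508_at and 1447448_s_at (log2 -2.16 and -1.86), Klf12 1455521_at (log2 -1.98), and Klf13 1432543_a_at and 1436316_at (log2 -1.64 and -1.62, adjusted p = 0.271 and 0.275). With log2 5 in place of the signals near background, the fall was at least 6.80-fold for Klf7, and at least 1.53-fold for Klf12 and 1.59-fold for Klf13 1432543_a_at, both under the threshold. Without labelled induced RNP-IP 1 the calls on Klf3 (log2 1.12), Klf12 (log2 -1.39) and both Klf13 probe sets (log2 -1.41 and -1.27) were lost. The Klf10 call was lost without labelled induced RNP-IP 2 (log2 1.93, adjusted p = 0.615), and those on Klf3 and Klf12 were lost without either RNP-IP labelled uninduced (adjusted p = 0.645 and 0.557). Without labelled induced RNP-IP 2, Klf3 1454666_at, Klf6 1459718_x_at and Klf9 1456341_a_at were called lower as well (log2 -1.72, -1.59 and -1.73).

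The RNP-IPs labelled uninduced were compared with total RNA to see what the beads held in the control extract. None of the 38 probe sets was called, beside 0.891% of all higher and 0.933% lower, while limma gave 3 of 38 an unadjusted p under 0.05, beside 10.9% of all. Klf10 had a log2 difference of -1.84 (adjusted p = 0.633), which was not called. Klf7 1449439_at had -0.40 and Klf6 1433508_at -0.82, neither called.

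**Figure D3:**
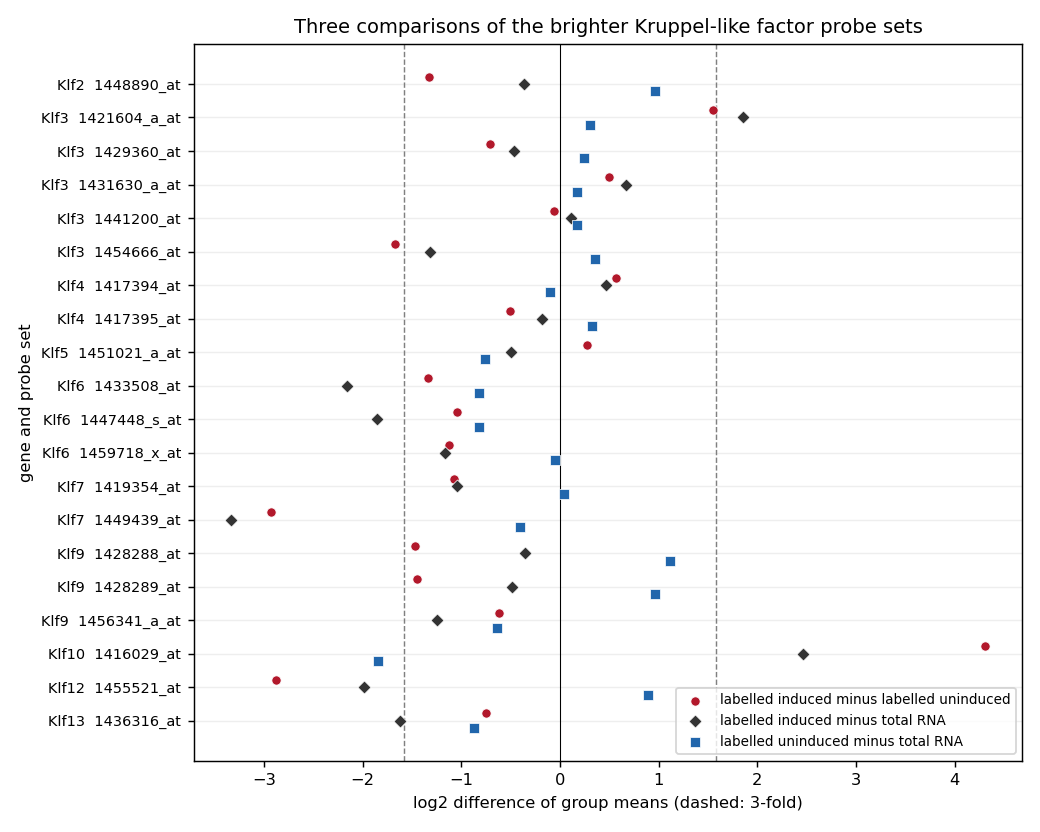
Log2 differences of group means for the probe sets with a mean signal above log2 5 or a call, labelled induced minus labelled uninduced (red circles), labelled induced minus total RNA (black diamonds) and labelled uninduced minus total RNA (blue squares), with dashed lines at 3-fold. For Klf10 the red circle lies at 4.30, the black diamond at 2.46 and the blue square at -1.84.

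The relatives of the members were described from the brightest probe set of each gene, beside 1.32% of all 18194 genes called higher and 2.36% called lower and a median log2 fold of 0.002. Of 16 other Sp and Kruppel-like genes 13 were measured and none was called, with a median of 0.03, and 9 of them were under log2 5 in every array. Sp1 and Sp3, which bind the same GC boxes in most cells, had log2 folds of -1.12 ± 0.13 (adjusted p = 0.118) and 1.65 ± 0.89 (adjusted p = 0.674). Another Sp1 probe set, 1418180_at, was called lower, at -1.66. Sp8, a factor of limb development, had -0.58 at low signal.

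Of 24 partners and regulators of the proteins 23 were measured, of which 1 rose, 2 fell and 20 were not called, with a median log2 fold of -0.39. Only 2 of the 23 were under log2 5 in every array, against 9099 of all 18194 genes. Genes of a mean signal above log2 5 had a median of -0.13. Sin3a, the scaffold that Klf9, Klf10 and Klf13 bind, had log2 signals of 9.51 and 7.82 in the arrays labelled induced against 6.35, 6.38 and 7.01 in total RNA, and rose by 2.08 ± 0.60 (adjusted p = 0.356). Its probe set 1419101_at was called as well, at 3.17, but the call on the brightest one was lost without labelled induced RNP-IP 1 (log2 1.24), labelled uninduced RNP-IP 1 (log2 1.97) or labelled uninduced RNP-IP 2 (log2 1.98). Wwp1, a ubiquitin ligase of Klf2 and Klf5, had 4.94 and 5.37 against 7.74, 6.92 and 8.63 in total RNA and fell by 2.61 ± 0.57 (adjusted p = 0.256), a call lost without labelled induced RNP-IP 1 (log2 -2.39) and without both arrays of low 5′ signal (log2 -2.83). Ctbp2, a corepressor of Klf3 and Klf12, fell by 1.83 ± 0.50 on 1434705_at (adjusted p = 0.325), while its other probe set had a log2 fold of 0.10. The Ctbp2 call was lost without labelled induced RNP-IP 1 (log2 -1.36), labelled uninduced RNP-IP 1 (log2 -1.82) or both arrays of low 5′ signal (log2 -2.29) and with total RNA dropped from the controls (log2 -1.54).

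Of 28 genes known as targets of these factors 26 were measured and none was called, with a median log2 fold of 0.07. The largest differences were those of Cdkn1a, a cell cycle inhibitor that Klf4 and Klf6 activate, at 1.66 ± 0.75 (adjusted p = 0.600), and of Cebpd and Cebpb, factors of early fat cell formation, at 1.44 ± 0.19 and 1.11 ± 0.47 (adjusted p = 0.139 and 0.570). Cebpd had log2 signals of 9.02 and 9.40 in the arrays labelled induced against 7.55, 8.0 and 7.77 in total RNA, with no overlap, but its 2.71-fold difference was under the threshold.

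The called differences were set beside their values under other processing. The Klf7 probe set stayed past the thresholds of fold and adjusted p 0.5 under each of 13 other settings, with log2 differences of -3.28 to -2.50, and missed an adjusted p of 0.05 as reported. Its adjusted p was 0.0493 with median centring, 0.0360 on the brightest probe sets alone and 0.0353 with a floor at log2 5. It was 0.0542 with cyclic loess, 0.119 with limma-trend and 0.126 with total RNA dropped from the controls. With the replicate block it was 0.266, and 0.125 with the block crossed. Without labelled uninduced RNP-IP 1 it was 0.253, and 0.274 without labelled uninduced RNP-IP 2. The log2 difference was -2.87 without labelled induced RNP-IP 1 and -3.25 without labelled induced RNP-IP 2, fits that leave 1 array labelled induced. The brightest probe sets were chosen by the mean over all arrays, including the controls where this probe set was high. The floor set both arrays labelled induced to log2 5, which removed the spread between them, and kept this probe set only through its controls. Shares of all probe sets under 0.05 were not computed in these fits, so nothing was concluded from the values under 0.05. Klf10 was between 3.06 and 4.30 throughout, above 3-fold each time. Its call was lost with the replicate block (adjusted p = 0.516), besides the fits with arrays left out named above. Without labelled uninduced RNP-IP 2 its adjusted p was 0.494, close to the threshold.

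**Figure D4:**
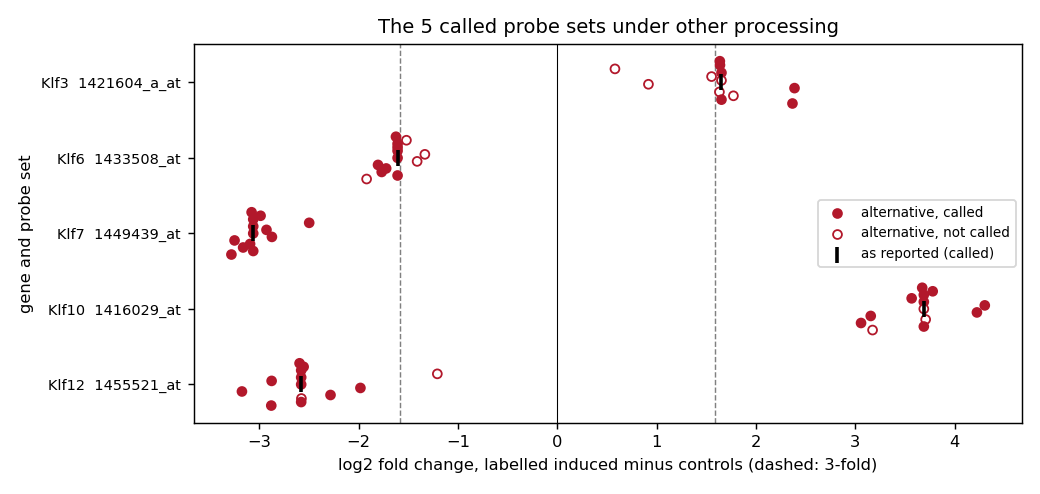
Log2 fold change of the 5 called probe sets as reported (black bar) and under each alternative fit that could be computed, at the same thresholds (circles, filled where the probe set was still called and open where it was not), with dashed lines at 3-fold. The Klf7 circles are all filled, while Klf3 1421604_a_at has open circles down to 0.58.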

How the data were processed

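RNA of NIH/3T3 cells was amplified by the authors in a two-cycle labelling, hybridised to GeneChip Mouse 430 2.0 arrays and normalised by RMA (version not given in the sources used here). The deposited values are log2 signals of 45101 probe sets in 5 arrays, unfiltered, and were used as they stand. The number of arrays limits the precision.

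Groups followed the sample labels. The models were fitted on all probe sets by lmFit and eBayes of limma 3.58.1 (R 4.3.3), first with 2 groups and then with 3, and p-values were adjusted by Benjamini-Hochberg over all probe sets. A call was a fold of at least 3 with an adjusted p under 0.5, and 0.05 was tried beside it. The fit was tested on simulated data, where 88 of 100 probe sets with a log2 change of 2 and 94 of 100 with 4 were called in the right direction in the first comparison, over 45101 probe sets, and 31 unchanged ones were called. The simulated noise was independent and normal, with the measured spreads shuffled over probe sets and no floor. At an adjusted p under 0.05 limma called 72 and 87 of 100 there, against 0% of all probe sets in the real data. These rates therefore do not give the sensitivity for the members.

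Names came from the array's annotation, in which 34958 probe sets have 1 gene, 932 several and 9211 none. All probe sets of the members are plotted and counted, and the text gives values of those near background in part. Genes named from each other list are the called ones or, where fewer than 3 were called, the largest folds up to 3 genes. The members and lists were chosen with earlier results of these data known. Identical values in at least 2 arrays occurred in 39.5% of the members' probe sets and 55.1% of all. Figures were drawn with matplotlib 3.10.9. Alternatives were centring, cyclic loess, the 15100 brightest probe sets, a floor at log2 5, limma-trend, other control arrays, a replicate block, the brightest against the largest-fold probe set of a gene, and each RNP-IP left out. Leaving out both arrays of low 5′ signal, the crossed pairing and the alternatives to the comparison of RNP-IPs labelled induced with total RNA were added after seeing the data.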

Additional observations from a re-analysis of the deposited data

How the results depend on the processing

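In the comparison with 3 controls, the count of 2 probe sets called higher became 1 on the brightest probe sets alone, with the floor, with the RNP-IPs labelled uninduced alone and without both arrays of low 5′ signal, and 0 to 2 with 1 RNP-IP left out; the 3 called lower became 2 to 4 with 1 left out. At an adjusted p under 0.05 the counts were 0 in both directions there, 0 and 0 between RNP-IPs and 0 and 0 against total RNA, and 0 of the partners were called higher and 0 lower. The replicate numbers do not pair the RNP-IPs by the labels: the replicate block gave 0 higher in the comparison with 3 controls, 0 higher between RNP-IPs, 0 higher and 3 lower against total RNA, and 1 partner lower. The deviations of RNP-IPs of the same number correlated at -0.50 across probe sets, and the crossed block gave 2 higher and 3 lower. With 1 RNP-IP left out, the count higher was 1 to 2 between RNP-IPs and 1 to 1 against total RNA, and lower 2 to 3 and 3 to 9. On the brightest probe sets alone, 1 member was higher against total RNA and 1 lower between RNP-IPs labelled uninduced and total RNA. Of other Sp and Kruppel-like genes, 1 was higher on the brightest probe sets, with the floor and with the crossed block, 1 lower by largest fold, and 0 to 1 higher with 1 left out. Of partners, 0 to 1 were higher and 0 to 4 lower with 1 left out. Of target genes, 1 was higher on the brightest probe sets, with the floor and with the crossed block, 2 lower by largest fold, and 0 to 1 in each direction with 1 left out. The cause was not tested, apart from fewer arrays or probe sets in the fits named so. Apart from the adjusted p under 0.05, shares over all probe sets or genes were not computed under these settings. The same holds for the choice of the largest-fold probe set, which favours calls in any list of genes. These counts were therefore not read as results about the members or the lists. No value of a called probe set changed sign. Signals under log2 5, which 16 of 38 probe sets had in every array, limit what these arrays show of the members.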

Other observations

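Among the partners that the rule did not name, Mef2c, a factor that activates Klf2 transcription, was chosen after its values were seen. Its probe set 1424852_at had log2 signals of 5.80 and 5.74 in the arrays labelled induced, 7.64 and 7.80 in the arrays labelled uninduced and 4.93 in total RNA. The RNP-IPs labelled uninduced stood above both other groups. The log2 difference was -1.95 ± 0.08 (SE, limma adjusted p = 0.118) for labelled induced minus labelled uninduced and 2.79 ± 0.10 (adjusted p = 0.156) for labelled uninduced minus total RNA, and both were called. Total RNA was near background, and with log2 5 in its place the second difference was at least 6.59-fold. Against the 3 controls the RNP-IPs labelled induced had a log2 difference of -1.02 (adjusted p = 0.761), which was not called. The other 4 Mef2c probe sets were under log2 5 in every array. The Mef2c calls stand beside 1.91% of all probe sets called lower between RNP-IPs, and 0.891% called higher between RNP-IPs labelled uninduced and total RNA. Whether they hold under other processing was not looked at.

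Smad2 and Smad7 carry and restrain TGF-beta signalling upstream of Klf10. Each had a probe set called lower that was not the brightest of its gene, beside 1.66% of all probe sets called lower. Both were also chosen after their values were seen, and whether these calls hold under other processing was not looked at. Smad2 1442062_at had log2 signals of 5.43 and 5.34 in the arrays labelled induced against 8.39, 8.04 and 7.09 in total RNA, a difference of -2.46 ± 0.44 (limma adjusted p = 0.198). The brightest Smad2 probe set, 1420634_a_at, had a log2 difference of 0.64 and was not called. Smad7 1443771_x_at had -1.79 ± 0.40 (adjusted p = 0.259), beside -0.98 at its other probe set, which was not called.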
